A study of Mus musculus with 12 samples.

Results

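Heat shock proteins are molecular chaperones, and the DnaJ proteins are the cochaperones that deliver clients to the HSP70 chaperones and start their ATP cycle. In the mouse prostate, 77 genes were taken as this family from the 23284 genes measured: all symbols that begin with Hsp or Dnaj and name a heat shock protein or a DnaJ protein of subfamily A, B or C, together with the transcription factors Hsf1 and Hsf2 and the HSP70 nucleotide exchange factor Bag3. A gene was tested if its value was at least 4 in at least 6 libraries, and 70 of the 77 members passed. The 7 others were Dnajb3, Dnajb8, Dnajc5b, Dnajc5g, Dnajc22, Hspb3 and Hspb9, whose values lay between 2.09 and 3.81, near the floor of the table.

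Whole prostate of mice aged 4 months was profiled by poly-A RNA sequencing in 6 libraries of the null genotype (homozygous for a null allele) and 6 of the wild-type genotype. Both genotypes were on the same hybrid background of 129/SvImJ and C57Bl/6J. Since no label states that each library of a genotype is a separate animal, the p-values cover only library-to-library spread, and that spread may be technical. In whole tissue, fewer cells of a type and less RNA per cell cannot be told apart. Values are deposited log2 expression, and undetected genes lie near a floor (1123 olfactory receptor genes had a median of 2.85). Differences are null minus wild type on that log2 scale, and a member was called where limma's Benjamini-Hochberg adjusted p over all 15096 tested genes was under 0.05.

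Most heat shock genes share a regulatory logic. Unfolded protein in the cytosol frees the transcription factor HSF1, which binds arrays of the inverted repeat nGAAn and induces HSP70, HSP90, HSP110, HSP40 and small heat shock proteins. Unfolded protein in the endoplasmic reticulum (ER) acts through separate sensors and induces ER chaperones such as Hspa5 (BiP), which are abundant in secretory epithelia.

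The tissue label was checked on prostate secretory genes. Pbsn (probasin) lay between 15.63 and 16.14 in the null libraries and between 17.90 and 18.06 in the wild-type libraries. Msmb lay between 9.02 and 10.03 in the null and between 15.21 and 15.31 in the wild-type libraries, and Sbp between 3.13 and 5.06 in the null, at or near the floor, and between 18.996 and 19.23 in the wild-type libraries. The libraries of each genotype were also divided into triplets. Over 3605 genes other than the members, the chosen split had 1 library of each triplet nearest to an equal mix of the others. It put null libraries 1, 2 and 5 apart from null libraries 3, 4 and 6. The summed median deviation was 0.0589, against 0.139 for the next split. Wild-type libraries 1 to 3 were put apart from 4 to 6 (0.0703 against 0.121). Null library 5 deviated from the mix of null libraries 1 and 2 by a median of 0.0297, against 0.0671 and 0.0646 from the separate libraries. Wild-type library 3 was less distinct, at 0.0362 from its mix against 0.0389 from wild-type library 1. Nearness to a mix was the criterion of the split and so is not a separate result. Calls are therefore also given over the triplet means, which leave 2 values per genotype, and without either null triplet.

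Of the 70 tested members, 20 were called higher and 11 lower in the null prostate, and 39 were not called. The called share was 44.3%, against 53.1% of all tested genes, of which 28.0% were higher and 25.1% lower. The median difference was 0.10 over the members and 0.01 over all tested genes. The genotypes did not overlap for 8 members higher in null (17.4% of all tested genes) and 7 lower in null (15.2% of all tested genes), while 12 of the 20 members called higher overlapped with wild type. Without null libraries 1, 2 and 5, 15 members were called higher (28.2% of all tested genes) and 12 lower (23.8% of all tested genes), of which 12 and 9 were also called over 12 libraries. Without null libraries 3, 4 and 6, 29 members were called higher (25.8% of all tested genes) and 13 lower (24.7% of all tested genes), of which 20 and 10 were also called over 12 libraries. The 12 further calls were Bag3, Dnajb2, Dnajb9, Dnajb11, Hspa1a, Hspa2, Hspa8, Hspb7 and Hspd1 higher and Dnajb14, Dnajc1 and Dnajc10 lower, and Dnajb13 lost its call (adjusted p = 0.0507). Over the triplet means 3 members, Dnajb7, Dnaja4 and Dnajc24, were called higher and 0 lower with limma, against 14.5% of all tested genes called, and every other member called over 12 libraries missed the threshold. Scaling mattered for the balance of directions, among the members and among all tested genes. As deposited, 64.5% of the called members were higher. Quantile normalisation gave 14 higher and 17 lower members, and upper-quartile scaling 13 higher and 16 lower. Of all 15096 tested genes, 4224 were higher and 3789 lower as deposited. Quantile normalisation gave 4073 and 4174 of them, and upper-quartile scaling 3367 and 4869, so the balance of all tested genes moved the same way. Hsf1, Hsp90aa1, Hspb1, Hspb6, Hspe1 and Hsph1 lost their calls under both scalings, Hspa4l under upper-quartile scaling and Hspbap1 under quantile normalisation.

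**Figure D1:**
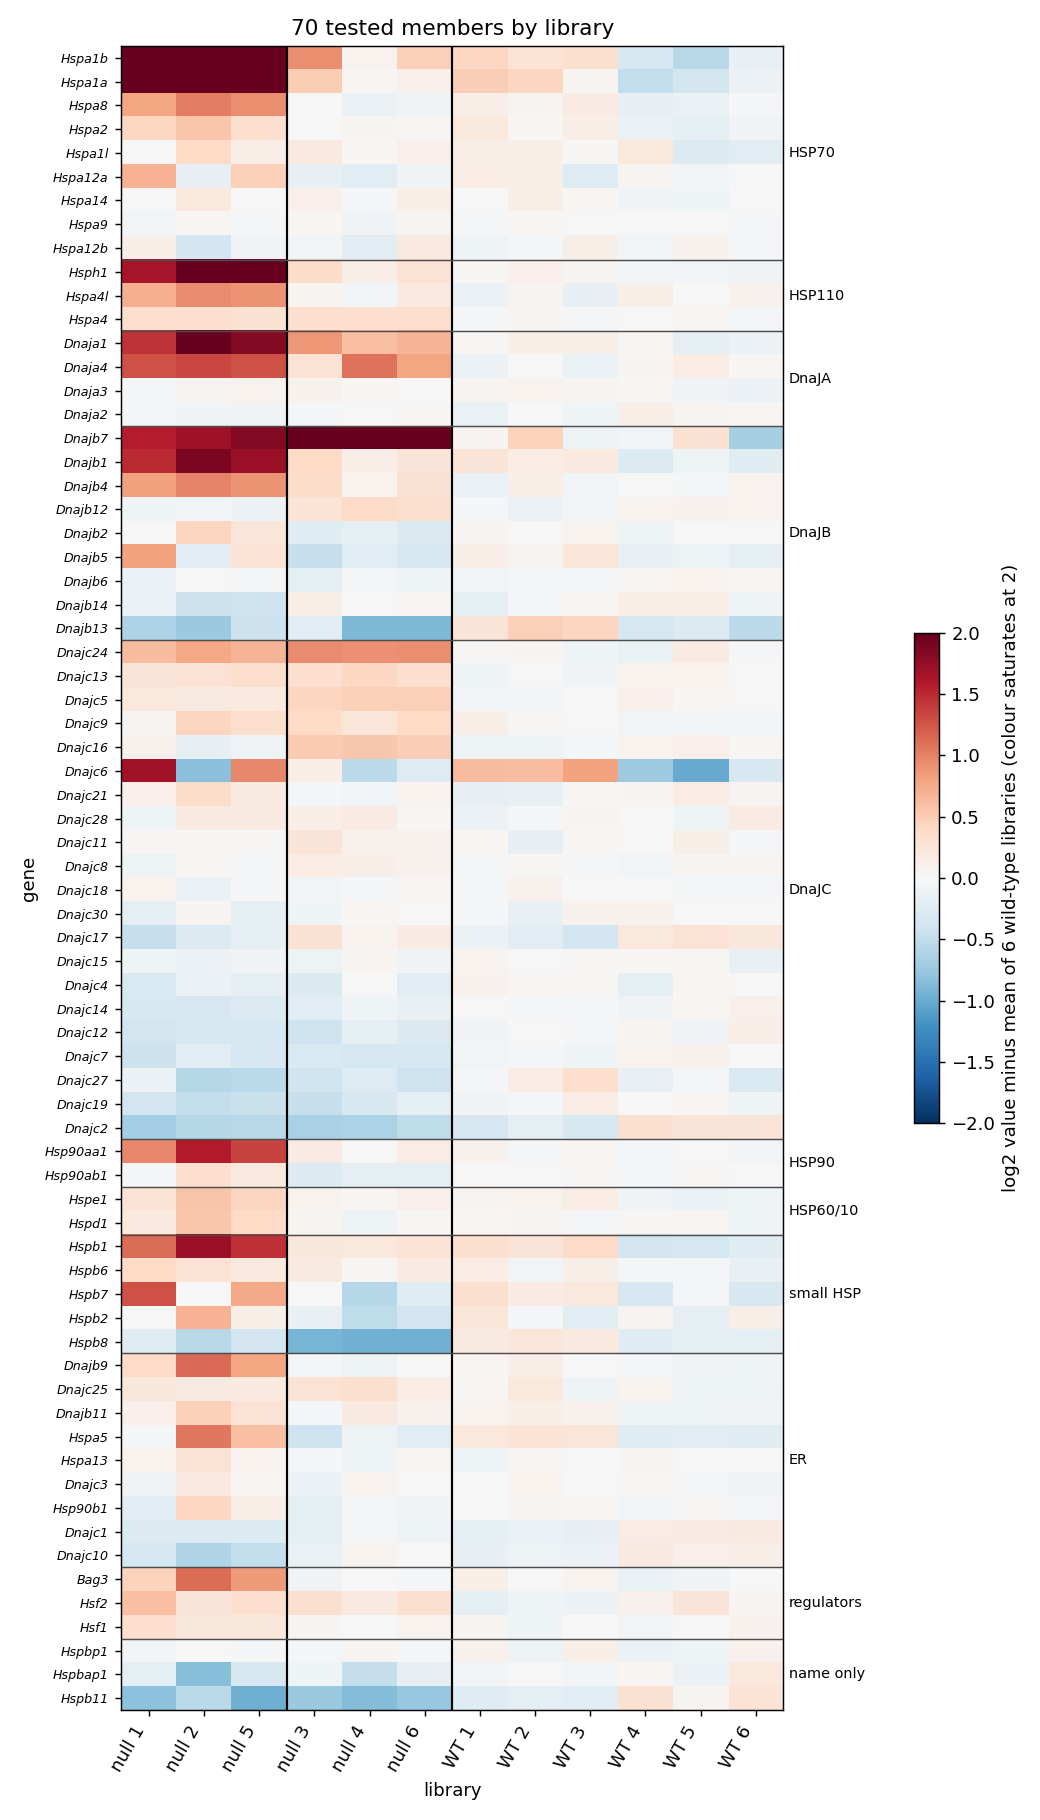
Deviation of each of the 70 tested members (rows, by role) from its wild-type mean in each library (columns: null 1, 2 and 5, null 3, 4 and 6, then wild type, written WT, 1 to 6), in log2 units, with the colour saturating at 2. The strongest deviations above wild type stand in null libraries 1, 2 and 5 and belong to Hspa1a, Hspa1b and Hsph1.

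Some members differed most among the null libraries themselves. Null libraries 1, 2 and 5 had 10, 13 and 9 members at least 2-fold above the wild-type mean, whereas null libraries 3, 4 and 6 had 1, 2 and 1, and none of the 6 wild-type libraries had any. In the null libraries such genes made up between 3.56% and 4.78% of all tested genes. All of null libraries 1, 2 and 5 lay above all of null libraries 3, 4 and 6 for 26 of the 70 members (37.1%), against 14.3% of all tested genes. The opposite order held for 13 members (18.6%), against 24.6% of all tested genes. DnaJ proteins of subfamily C went the other way, leaving aside those grouped with the ER. Of 21 tested, 1 held the first order (4.76%) and 7 the opposite order (33.3%). For 7 members the mean of null libraries 1, 2 and 5 was at least 2-fold above that of null libraries 3, 4 and 6 (10% of 70, against 1.71% of all tested genes). They were Hspa1a, Hspa1b, Hsph1, Hspb1, Dnajb1, Dnaja1 and Hsp90aa1. These orders describe the libraries, since no label separates them, and they were not tested.

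**Figure D2:**
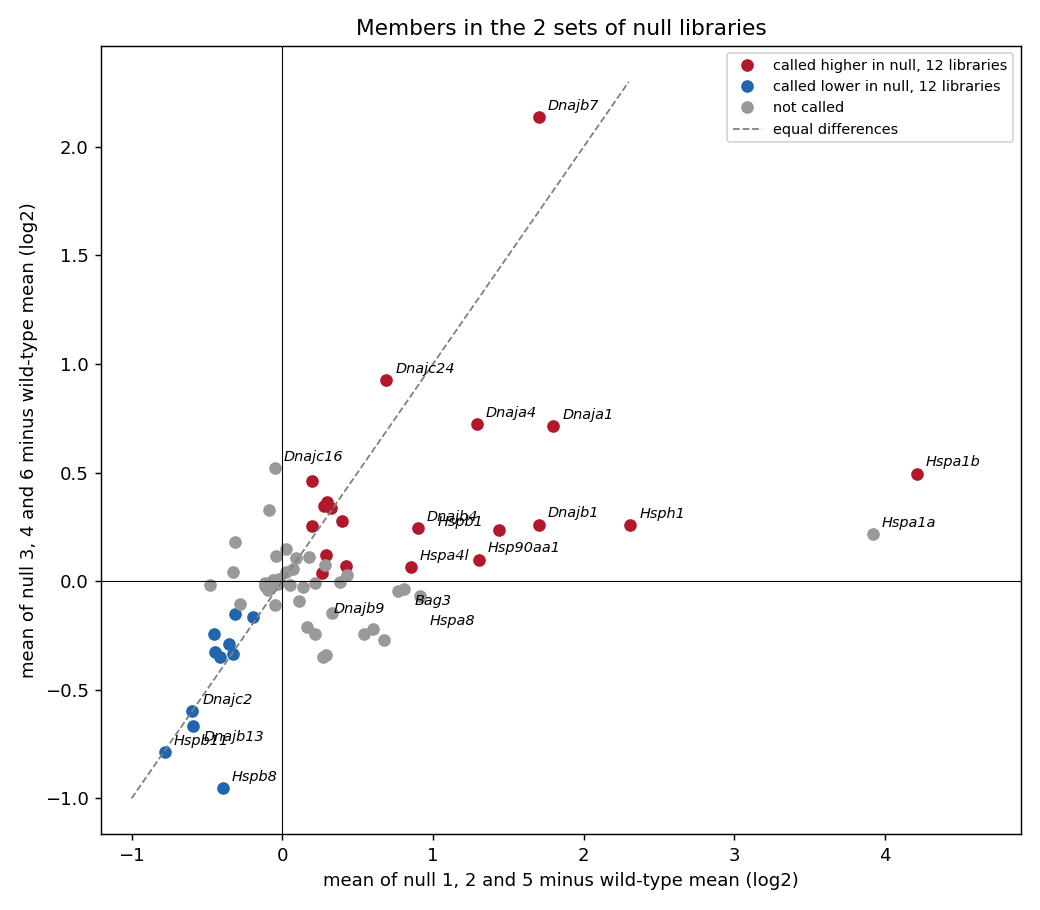
Mean of null libraries 1, 2 and 5 minus the wild-type mean (horizontal axis) against mean of null libraries 3, 4 and 6 minus the wild-type mean (vertical axis), in log2 units, for the 70 tested members, coloured by call; the dashed line marks equal differences. Hspa1b lies at 4.21 on the horizontal and 0.50 on the vertical axis, whereas Dnajb7 lies at 1.70 and 2.14.

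The stress-inducible cytosolic HSP70 genes were the extreme case. Hspa1b, an HSP70 with low expression in unstressed tissue, had values of 12.60, 13.36, 9.71, 8.85, 13.00 and 9.26 in null libraries 1 to 6, against 9.19, 9.07, 9.09, 8.45, 8.22 and 8.63 in wild-type libraries 1 to 6. Null libraries 1, 2 and 5 exceeded every other library, and null library 4 lay within the wild-type range. The mean of null libraries 1, 2 and 5 was 18.5-fold above the wild-type mean, and that of null libraries 3, 4 and 6 was 1.41-fold above it. The neighbouring Hspa1a had 11.01, 11.68, 7.95, 7.48, 11.39 and 7.54 in the null libraries, against 7.94, 7.87, 7.49, 6.94, 7.07 and 7.31 in the wild-type libraries. Hspa1a was 15.1-fold above wild type in null libraries 1, 2 and 5 and 1.16-fold above it in null libraries 3, 4 and 6. Over all 12 libraries Hspa1b averaged 11.13 ± 2.07 in null and 8.78 ± 0.397 in wild-type libraries (SD, n = 6 each) and was called (difference 2.35, SE 0.844, limma adjusted p = 0.0367). Hspa1a averaged 9.51 ± 2.05 in null and 7.44 ± 0.409 in wild-type libraries and was not (2.07, SE 0.831, adjusted p = 0.0570). Without null libraries 1, 2 and 5 neither was called (adjusted p = 0.143 for Hspa1b and 0.447 for Hspa1a), and leaving out null library 1, 2 or 5 or any 1 wild-type library also ended the call of Hspa1b (adjusted p up to 0.0757). Hspa1a passed without null library 3, 4 or 6 (adjusted p between 0.0269 and 0.0405). Reads of the nearly identical Hspa1a and Hspa1b may have been divided between them in ways the deposited values do not show.

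The other HSP70 members were not called. Hspa8, the constitutive Hsc70, had 13.00, 13.24, 12.21, 12.07, 13.14 and 12.14 in the null libraries, against 12.34, 12.27, 12.37, 12.05, 12.08 and 12.17 in the wild-type libraries (difference 0.42, SE 0.209, adjusted p = 0.108). Null libraries 1, 2 and 5 again stood above all others, and null libraries 3, 4 and 6 lay within the wild-type range; Hspa8 passed without null library 4 (adjusted p = 0.0422). Hspa9, the HSP70 of the mitochondrial matrix, differed by -0.01 (SE 0.0382, adjusted p = 0.918).

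All 3 members of the HSP110 family, which act as nucleotide exchange factors for HSP70, were called higher, against 28.0% of all tested genes. Hsph1 (HSP105) had 11.96, 13.19, 10.69, 10.43, 12.72 and 10.60 in the null libraries, against 10.33, 10.42, 10.37, 10.26, 10.26 and 10.24 in the wild-type libraries (difference 1.28, SE 0.470, adjusted p = 0.0389). The genotypes did not overlap, but the mean excess was 2.31 in null libraries 1, 2 and 5 and 0.26 in null libraries 3, 4 and 6, and its call was lost without null library 1, 2 or 5 or any 1 wild-type library (adjusted p up to 0.0780). With null libraries 1, 2 and 5 all left out Hsph1 was called higher (adjusted p = 0.00384). Hspa4 had 12.13, 12.12, 12.11, 12.13, 12.09 and 12.13 in the null libraries, against 11.75, 11.83, 11.76, 11.80, 11.83 and 11.74 in the wild-type libraries. Its small difference was nearly equal in all null libraries (0.33, SE 0.0350, adjusted p = 2.14e-06; 1.52e-05 without null libraries 1, 2 and 5). Hspa4l, singled out after its values were seen, differed by 0.46 (SE 0.168, adjusted p = 0.0333), with a mean excess of 0.85 in null libraries 1, 2 and 5 and of 0.06 in null libraries 3, 4 and 6, and the call was lost without null library 1, 2 or 5 or wild-type library 1, 3 or 5 (adjusted p up to 0.0732).

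**Figure D3:**
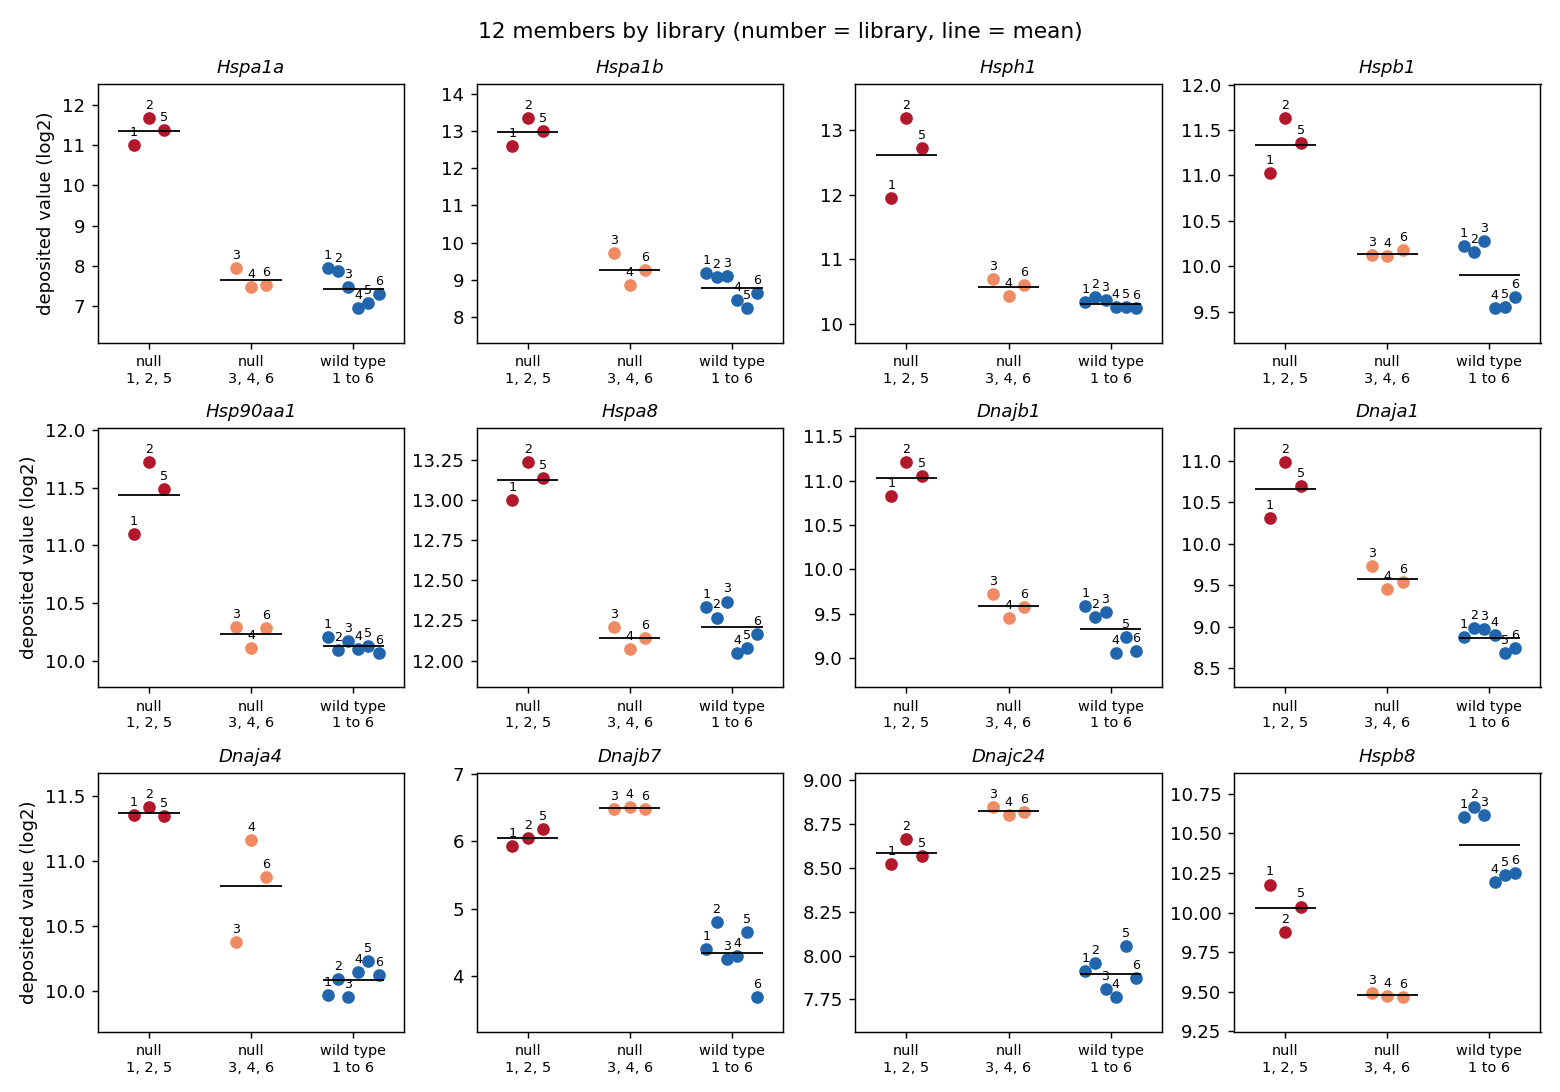
Deposited log2 value of 12 members in each of the 6 null libraries (left, with null 1, 2 and 5 marked apart from null 3, 4 and 6) and the 6 wild-type libraries (right). Hspa1a, Hspa1b, Hsph1, Hspb1, Hsp90aa1, Hspa8, Dnajb1 and Dnaja1 form 2 levels within null, and Hsph1, Dnaja1, Dnaja4, Dnajb7 and Dnajc24 are above and Hspb8 below wild type in every null library.

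Of the 2 cytosolic HSP90 genes 1 was called, against 53.1% of all tested genes. Hsp90aa1, the inducible HSP90-alpha and like Dnajb1 singled out after its values were seen, had 11.10, 11.72, 10.29, 10.12, 11.49 and 10.29 in the null libraries, against 10.21, 10.10, 10.18, 10.11, 10.13 and 10.07 in the wild-type libraries. It was called (difference 0.70, SE 0.265, adjusted p = 0.0424), but not without null libraries 1, 2 and 5 (adjusted p = 0.126) nor without null library 1, 2 or 5 or any 1 wild-type library (adjusted p up to 0.0863). Hsp90ab1, the constitutive HSP90-beta, had 15.13, 15.50, 14.90, 14.99, 15.36 and 14.98 in the null libraries and between 15.13 and 15.19 in the wild-type libraries (difference -0.02, SE 0.0910, adjusted p = 0.849). Null libraries 3, 4 and 6 all lay under the wild-type range, and without null libraries 1, 2 and 5 Hsp90ab1 was called lower (adjusted p = 0.00117).

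The DnaJ proteins of subfamilies A and B, many of which pair with cytosolic HSP70, are counted here without those grouped with the ER. Of their tested members, 2 of 4 (A) and 3 of 9 (B) were called higher and 0 and 1 lower. Of all tested genes, 28.0% were called higher and 25.1% lower. Dnaja1 had 10.31, 10.98, 9.73, 9.46, 10.70 and 9.54 in the null libraries, against 8.88, 8.98, 8.98, 8.90, 8.69 and 8.75 in the wild-type libraries (difference 1.26, SE 0.245, adjusted p = 0.00100). Every null library was above every wild-type library, by a mean of 3.48-fold in null libraries 1, 2 and 5 and 1.64-fold in null libraries 3, 4 and 6, and the call held without null libraries 1, 2 and 5 (adjusted p = 1.22e-05). Dnaja4 had 11.35, 11.42, 10.38, 11.16, 11.35 and 10.88 in the null libraries, against 9.97, 10.09, 9.95, 10.14, 10.23 and 10.12 in the wild-type libraries. It was called over all libraries (1.01, SE 0.152, adjusted p = 0.000109), over the triplet means (0.0316) and without null libraries 1, 2 and 5 (0.00181). Dnajb1, the main HSP40 partner of inducible HSP70, had 10.82, 11.20, 9.72, 9.45, 11.05 and 9.58 in the null libraries, against 9.59, 9.47, 9.52, 9.06, 9.24 and 9.07 in the wild-type libraries (0.98, SE 0.324, adjusted p = 0.0238; 0.105 without null libraries 1, 2 and 5).

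Dnajb7 had the largest difference of the members that did not overlap. It had 5.93, 6.05, 6.48, 6.51, 6.19 and 6.48 in the null libraries, against 4.40, 4.81, 4.25, 4.30, 4.66 and 3.68 in the wild-type libraries (1.92, SE 0.179, adjusted p = 6.38e-07; 0.00895 over the triplet means). The wild-type values are close to the floor. Dnajb7 lies inside Xpnpep3 on the opposite strand, and the counting is not stated to use strand. Xpnpep3 lay between 7.67 and 8.14 in the null libraries and between 7.67 and 8.00 in the wild-type libraries. The same limit holds for the called members Dnaja1, Dnaja4, Dnajb13, Dnajc7, Dnajc14, Dnajc19 and Hspb6. Their exons overlap those of a gene on the opposite strand. Cnp, which overlaps Dnajc7, differed by -0.41, while Ucp2, which overlaps Dnajb13, differed by 0.34 and Fxr1, which overlaps Dnajc19, by 0.12. The part of such overlaps in the calls was not tested. Dnajb4, chosen after its values were seen, was also called higher (0.57, SE 0.142, adjusted p = 0.00426), and the call held without null libraries 1, 2 and 5 (0.0140). Dnaja2, Dnajb2 and Dnajb6 differed by -0.03, -0.01 and -0.08 and were not called (adjusted p = 0.656, 0.924 and 0.189). Without null libraries 1, 2 and 5 Dnajb2 was called lower (adjusted p = 0.000924). Dnajb13, an axonemal DnaJ protein chosen after its values were seen, was called lower (-0.63, SE 0.193, adjusted p = 0.0129), with values between 5.07 and 5.77 in the null and between 5.45 and 6.45 in the wild-type libraries.

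Subfamily C, whose members carry a J domain in otherwise unrelated proteins, had 4 of 21 tested members called higher and 7 lower. These counts leave aside those grouped with the ER, and the shares of all tested genes were 28.0% higher and 25.1% lower. Dnajc24, which with DPH partners takes part in diphthamide synthesis, had 8.52, 8.67, 8.85, 8.80, 8.57 and 8.82 in the null libraries, against 7.91, 7.96, 7.81, 7.76, 8.06 and 7.87 in the wild-type libraries (0.81, SE 0.0728, adjusted p = 4.36e-07; 0.0149 over the triplet means). Dnajc13, an endosomal protein, differed by 0.33 (SE 0.0424, adjusted p = 1.44e-05) and Dnajc5, the cysteine string protein of secretory vesicles, by 0.33 (SE 0.0620, adjusted p = 0.000466), and neither overlapped. Null libraries 3, 4 and 6 were all above null libraries 1, 2 and 5 for Dnajc24 and Dnajc5. Dnajc9, a histone cochaperone chosen after its values were seen, was also called higher (0.31, SE 0.0677, adjusted p = 0.00137).

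Dnajc2, a ribosome-associated DnaJ protein also called MPP11, had 9.14, 9.25, 9.16, 9.18, 9.26 and 9.31 in the null libraries, against 9.48, 9.64, 9.50, 10.13, 10.08 and 10.07 in the wild-type libraries (-0.60, SE 0.115, adjusted p = 0.000622). The null libraries stood at 1 level, and the wild-type libraries at 2. Dnajc7 (TPR2, which binds HSP70 and HSP90) had values between 11.16 and 11.37 in the null and between 11.50 and 11.68 in the wild-type libraries (-0.33, SE 0.0457, adjusted p = 2.88e-05). Dnajc19, of the mitochondrial inner membrane, lay between 6.66 and 6.98 in the null and between 7.08 and 7.31 in the wild-type libraries (-0.38, SE 0.0775, adjusted p = 0.000780). Dnajc12 fell by 0.32 (SE 0.0568, adjusted p = 0.000270) and Dnajc14 by 0.23 (SE 0.0503, adjusted p = 0.00136). Dnajc4 and Dnajc27, both chosen after their values were seen, were called lower with overlapping genotypes (-0.18 and -0.38, adjusted p = 0.0281 and 0.0117). Dnajc4 lost the call without null library 1, 3 or 6 or wild-type library 1, 2 or 5 (adjusted p up to 0.0632). Dnajc16, chosen after its values were seen, had 9.44, 9.19, 9.87, 9.90, 9.28 and 9.85 in the null libraries and between 9.25 and 9.46 in the wild-type libraries. It was not called over 12 libraries (adjusted p = 0.119), passed without null library 2 (0.0249), and was called higher without null libraries 1, 2 and 5 (adjusted p = 9.03e-06).

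Among the small heat shock proteins, which hold unfolded clients without ATP, 2 of 5 tested members were called higher and 1 lower. The shares of all tested genes were 28.0% and 25.1%. Hspb1 (HSP25 in mice) had 11.03, 11.63, 10.12, 10.12, 11.36 and 10.18 in the null libraries, against 10.22, 10.16, 10.28, 9.53, 9.55 and 9.66 in the wild-type libraries (0.84, SE 0.297, adjusted p = 0.0333; 0.325 without null libraries 1, 2 and 5, up to 0.0699 without null library 1, 2 or 5 or wild-type library 4, 5 or 6). Hspb8, the partner of Bag3 in chaperone-assisted autophagy, had 10.18, 9.88, 9.49, 9.47, 10.04 and 9.46 in the null libraries, against 10.60, 10.67, 10.61, 10.19, 10.24 and 10.25 in the wild-type libraries (-0.67, SE 0.143, adjusted p = 0.00143; 4.16e-05 without null libraries 1, 2 and 5). Every null library was below every wild-type library. Bag3 itself had 10.39, 11.05, 9.86, 9.93, 10.78 and 9.88 in the null libraries, against between 9.80 and 10.05 in the wild-type libraries, and was not called (0.39, SE 0.193, adjusted p = 0.111). Hspb6, a muscle-rich small heat shock protein chosen after its values were seen, was called higher (0.21, SE 0.0667, adjusted p = 0.0172; 0.166 without null libraries 1, 2 and 5).

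The mitochondrial chaperonin Hspd1 (HSP60) was not called (0.19, SE 0.0920, adjusted p = 0.0942), with 11.02, 11.38, 10.88, 10.72, 11.21 and 10.85 in the null and between 10.73 and 10.87 in the wild-type libraries, and passed without null library 4 (adjusted p = 0.0234). Its cofactor Hspe1 (HSP10), chosen after its values were seen, was called higher (0.25, SE 0.0876, adjusted p = 0.0283; 0.362 without null libraries 1, 2 and 5). Hspe1 and Hspd1 are neighbours on opposite strands with overlapping exons in the annotation. The Hspe1 call was lost without null library 2 or 5 or wild-type library 4, 5 or 6 (adjusted p up to 0.0660). Of the 3 genes that carry the family name through binding or resemblance, Hspb11, an intraflagellar transport protein, was called lower, with 6.22, 6.49, 6.29, 6.18, 6.06 and 6.29 in the null libraries, against 6.80, 6.85, 6.83, 7.35, 7.09 and 7.31 in the wild-type libraries (-0.78, SE 0.117, adjusted p = 6.21e-05). Hspbap1, chosen after its values were seen, was called lower (-0.35, adjusted p = 0.0238), and this call was lost without wild-type library 6 (adjusted p = 0.0555), while Hspbp1 was not called (-0.02, adjusted p = 0.807).

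Both heat shock factors were called higher, by at most 0.34, where 28.0% of all tested genes were called higher. Hsf1, the factor of the heat shock response, had 9.75, 9.63, 9.46, 9.40, 9.64 and 9.48 in the null libraries, against 9.46, 9.32, 9.41, 9.36, 9.41 and 9.49 in the wild-type libraries (0.15, SE 0.0600, adjusted p = 0.0463; 0.550 without null libraries 1, 2 and 5). This call was lost without null library 1, 2 or 5 or without any 1 of wild-type libraries 1 to 5 (adjusted p up to 0.101). Hsf2 had 9.30, 8.95, 9.02, 8.87, 9.03 and 9.02 in the null libraries, against 8.51, 8.61, 8.58, 8.78, 8.95 and 8.74 in the wild-type libraries (0.34, SE 0.0821, adjusted p = 0.00320; 0.0221 without null libraries 1, 2 and 5), with null library 4 under wild-type library 5. An mRNA level does not measure HSF1 activity, which is set largely after translation.

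Of the 9 members grouped here with the ER, 1 was called higher and 0 lower with limma over 12 libraries. The shares of all tested genes were 28.0% and 25.1%. Over the triplet means limma called 0 of the 9. The grouping follows a list that may leave out other members located in the ER, so the counts hold for these 9 only. Dnajc25, an ER-membrane DnaJ protein, was the called member (0.23, SE 0.0610, adjusted p = 0.00607), with values between 8.79 and 8.97 in the null and between 8.54 and 8.85 in the wild-type libraries. Hspa5 had 15.79, 16.89, 15.41, 15.72, 16.43 and 15.62 in the null libraries, against 16.03, 16.11, 16.07, 15.58, 15.60 and 15.58 in the wild-type libraries (0.15, SE 0.229, adjusted p = 0.613). Null libraries 2 and 5 were the highest of all 12, and null library 1 lay within the wild-type range. As for Hspa1b, null library 2 was above null library 1. Null library 5 lay between them, close to an equal mix of null libraries 1 and 2 (-0.011 for Hspa5 and -0.032 for Hspa1b). Its place in the order therefore adds nothing. Dnajb9 (ERdj4), induced by ER stress, had 11.91, 12.67, 11.49, 11.44, 12.33 and 11.54 in the null and between 11.45 and 11.65 in the wild-type libraries (0.36, SE 0.191, adjusted p = 0.131). Hsp90b1 (GRP94) and Dnajc3 (p58IPK) differed by 0.01 and 0.02, Dnajb11 (ERdj3) by 0.18, Hspa13 by 0.06, Dnajc10 (ERdj5) by -0.25 and Dnajc1 (ERdj1) by -0.19, and none was called (adjusted p between 0.0537 and 0.929). Leaving out 1 library brought 3 of these under the threshold: Dnajb11 without null library 3 or wild-type library 2, Dnajc10 without null library 4 or 6, and Dnajc1 without null library 4 or wild-type library 1, 2 or 3 (adjusted p down to 0.0222, 0.0256 and 0.0238). After quantile normalisation Hsp90b1 and Dnajc3 were called lower (-0.25 and -0.18, adjusted p = 0.0327 and 0.00614).

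The promoters of the inducible members were read for heat shock elements, because these genes divided the null libraries alike. RefSeq windows of the GRCm38.p6 build, 250 bases before to 50 bases after a transcript start, were held for 62 of the 77 members. The files' build is mm9 and the positions given here are those of GRCm38.p6. The letters searched were GAANNTTC and TTCNNGAA, each of which is its own reverse complement, and matches to both can overlap. Of the members that were at least 2-fold higher in null libraries 1, 2 and 5 than in 3, 4 and 6, 5 of the 6 with a window held a match (Hspa1a, Hspa1b, Hsph1, Hspb1 and Dnaja1), against 17.0% of all 27025 genes with a window. Dnajb1 held none. Over the members as a whole, 17 of 62 (27.4%) held a match, including 8 of the 17 called higher (47.1%), 2 of the 9 called lower (22.2%) and 5 of the 31 not called (16.1%).

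The windows below, written from 250 bases before the start on the gene's strand, show the matches in capitals for the most divided members and for Dnaja4 and Hspe1, which were called higher and hold several. In Hspa1a (chr17:34972107-34972406, minus strand) and Hspa1b (chr17:34959189-34959488, minus strand) the match begins 104 bases before the start, and the windows are identical at 296 of 300 positions. In Hsph1 (chr5:149636266-149636565, minus strand) there are 3 matches, the first 54 bases before the start and the others after it. Hspb1 (chr5:135887669-135887968, plus strand) has matches 117 and 97 bases before its start, and Dnaja4 (chr9:54699309-54699608, plus strand) 90 and 52 bases before its start. In Hspe1 (chr1:55087898-55088197, plus strand) 3 overlapping matches begin 89, 84 and 79 bases before the start. The window of its neighbour Hspd1 (chr1:55087883-55088182, minus strand) covers nearly the same bases and also holds 3 matches. Hspd1 was not called, nor was Dnajb6, which holds 2 matches.
Hspa1a: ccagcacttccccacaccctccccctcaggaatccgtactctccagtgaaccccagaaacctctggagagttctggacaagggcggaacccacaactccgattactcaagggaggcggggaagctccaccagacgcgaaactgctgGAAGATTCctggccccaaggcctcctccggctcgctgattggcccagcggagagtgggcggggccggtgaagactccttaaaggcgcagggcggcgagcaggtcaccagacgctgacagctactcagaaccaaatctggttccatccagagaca
Hspa1b: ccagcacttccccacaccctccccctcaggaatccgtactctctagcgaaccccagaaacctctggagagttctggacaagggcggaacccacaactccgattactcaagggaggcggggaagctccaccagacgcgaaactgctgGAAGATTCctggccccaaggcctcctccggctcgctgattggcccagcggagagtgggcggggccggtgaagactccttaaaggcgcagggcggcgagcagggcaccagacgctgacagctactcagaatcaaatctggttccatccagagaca
Hsph1: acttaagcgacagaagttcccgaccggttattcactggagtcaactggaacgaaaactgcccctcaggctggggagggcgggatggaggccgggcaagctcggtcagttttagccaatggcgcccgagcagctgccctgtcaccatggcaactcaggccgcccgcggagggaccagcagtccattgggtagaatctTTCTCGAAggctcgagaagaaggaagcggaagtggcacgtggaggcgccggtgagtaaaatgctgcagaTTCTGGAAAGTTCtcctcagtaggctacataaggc
Hspb1: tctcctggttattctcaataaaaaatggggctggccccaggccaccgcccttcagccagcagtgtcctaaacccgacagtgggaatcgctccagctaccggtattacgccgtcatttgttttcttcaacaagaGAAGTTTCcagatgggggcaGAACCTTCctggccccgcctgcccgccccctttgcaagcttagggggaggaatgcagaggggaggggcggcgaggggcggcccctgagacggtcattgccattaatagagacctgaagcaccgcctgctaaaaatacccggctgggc
Dnaja4: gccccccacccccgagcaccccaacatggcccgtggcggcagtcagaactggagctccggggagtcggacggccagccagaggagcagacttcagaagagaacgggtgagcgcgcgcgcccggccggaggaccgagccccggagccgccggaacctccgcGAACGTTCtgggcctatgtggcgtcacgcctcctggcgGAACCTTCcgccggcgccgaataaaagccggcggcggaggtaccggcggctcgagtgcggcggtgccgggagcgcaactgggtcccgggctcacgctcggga
Hspe1: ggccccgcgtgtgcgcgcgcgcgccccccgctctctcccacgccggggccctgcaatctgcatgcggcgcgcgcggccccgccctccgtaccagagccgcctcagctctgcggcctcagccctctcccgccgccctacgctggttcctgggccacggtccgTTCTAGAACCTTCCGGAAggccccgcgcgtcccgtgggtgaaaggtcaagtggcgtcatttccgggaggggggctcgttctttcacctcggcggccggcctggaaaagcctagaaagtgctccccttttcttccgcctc
A match is a description of the letters and not of a bound site, and Hspb8, called lower, also held a match.

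For the ER members the ER stress response element (CCAAT, 9 bases of any kind and CCACG) and the letters TGACGTGG were searched on both strands. The first was found in 3 of 8 ER members with a window (Hspa5, Hsp90b1 and Dnajc3), against 0.137% of all genes with a window, and the second in Dnajc25, against 0.714% of all genes with a window. Of the 8 ER members, only Dnajc10 held a heat shock element. In Hspa5 (chr2:34771840-34772139, plus strand) the element, in capitals below, begins 65 bases before the start.
Hspa5: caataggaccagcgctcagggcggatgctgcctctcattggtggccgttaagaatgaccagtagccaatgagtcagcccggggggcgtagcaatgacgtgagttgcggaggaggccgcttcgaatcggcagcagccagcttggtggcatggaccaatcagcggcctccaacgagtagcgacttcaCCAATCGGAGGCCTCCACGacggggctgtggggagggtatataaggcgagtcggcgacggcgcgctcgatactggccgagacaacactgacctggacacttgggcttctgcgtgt

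Other chaperone genes were taken from 5 lists, of which 63 of 64 genes were tested. There 24 were called higher and 11 lower (55.6% called, against 53.1% of all tested genes). Of 20 tested cochaperones of HSP70 and HSP90, 12 were called higher and 3 lower, against 28.0% and 25.1% of all tested genes. Their median difference was 0.19. Chordc1, Ahsa2 and Stip1 (HOP), chosen after their values were seen, were each higher in null libraries 1, 2 and 5 than in null libraries 3, 4 and 6. Chordc1, an HSP90 cochaperone, had 10.62, 11.19, 10.01, 9.73, 10.94 and 9.91 in the null and between 9.44 and 9.60 in the wild-type libraries (0.87, SE 0.228, adjusted p = 0.00685). Ahsa2, a relative of the HSP90 activator Ahsa1, lay between 8.99 and 9.999 in the null and between 8.58 and 8.79 in the wild-type libraries (0.68, SE 0.155, adjusted p = 0.00228). Neither overlapped, and both calls held without null libraries 1, 2 and 5 (adjusted p = 0.000513 for Chordc1 and 0.000359 for Ahsa2). Stip1, which links HSP70 to HSP90, had 11.34, 11.84, 10.92, 10.82, 11.61 and 10.95 in the null and between 10.77 and 10.84 in the wild-type libraries (0.44, SE 0.153, adjusted p = 0.0262). Null library 4 overlapped with wild type, and the call was lost without null library 5 (adjusted p = 0.0586) and without null libraries 1, 2 and 5 (0.0716). Fkbp5, an androgen-responsive immunophilin that binds HSP90 in steroid receptor complexes, was called lower in null, between 11.24 and 11.67 there and between 11.94 and 12.24 in wild-type libraries (-0.73, SE 0.0816, adjusted p = 4.08e-06; 0.0228 over the triplet means). Bag1 and Unc45a were called higher (0.28 and 0.32).

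The CCT chaperonin, which folds actin and tubulin, had 2 of 9 subunits called higher (Tcp1, 0.20, and Cct6a, 0.17) and 2 lower, among them Cct7 (-0.30, SE 0.0413, adjusted p = 2.56e-05). The median over its subunits was -0.05, and 28.0% of all tested genes were called higher and 25.1% lower. Of 10 mitochondrial chaperones and proteases 3 were called higher and 3 lower. Htra2, a protease of the intermembrane space, lay between 8.96 and 9.12 in the null and between 7.64 and 8.01 in the wild-type libraries (1.23, SE 0.0658, adjusted p = 2.22e-09; 0.00321 over the triplet means), and Spg7 and Yme1l1 were also called higher (0.37 and 0.28). Cryab, the only tested small heat shock protein relative of 2, was called higher (0.26, SE 0.0962, adjusted p = 0.0359) with overlapping genotypes, and the call was lost without null library 1, 2, 3 or 5 or wild-type library 2, 4 or 6 (adjusted p up to 0.0828).

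Of 23 tested genes of ER folding and the unfolded protein response, 6 were called higher and 3 lower, against 28.0% and 25.1% of all tested genes. Their median difference was 0.12. The median over null libraries 1, 2 and 5 minus wild type was 0.34, against -0.09 over null libraries 3, 4 and 6 minus wild type. Ern1 (IRE1-alpha), an ER stress sensor, had 11.89, 11.82, 12.34, 12.28, 11.86 and 12.25 in the null and between 11.04 and 11.19 in the wild-type libraries (0.97, SE 0.0908, adjusted p = 7.77e-07; 0.0190 over the triplet means). Pdia4 (0.56) and Sil1, an exchange factor of Hspa5 (0.47), were also called higher. Ddit3 (CHOP), Herpud1 and Syvn1 were chosen after their values were seen. Ddit3, a transcription factor of the late ER stress response, had 9.07, 11.27, 7.97, 7.98, 10.62 and 8.11 in the null and between 8.44 and 8.72 in the wild-type libraries. Herpud1 had 13.52, 15.005, 12.59, 12.83, 14.49 and 12.72 in the null and between 13.02 and 13.33 in the wild-type libraries, and Syvn1, an ER ubiquitin ligase, 12.66, 14.49, 11.63, 11.82, 13.90 and 11.74 in the null and between 11.82 and 12.004 in the wild-type libraries. None of the 3 was called (adjusted p = 0.445, 0.483 and 0.185), and without null libraries 1, 2 and 5 all 3 were called lower (adjusted p = 3.16e-05, 0.000251 and 0.0192).

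Some markers of other tissues and cell types also differed between null libraries 1, 2 and 5 and null libraries 3, 4 and 6. For comparison, 14.3% of all tested genes were higher in each of null libraries 1, 2 and 5 than in 3, 4 and 6. The opposite order held for 24.6% of them, and 28.0% were called higher and 25.1% lower in null. The 8 seminal vesicle genes summed on the linear scale to between 107600 and 1341000 in the null libraries and between 105.6 and 3480 in the wild-type libraries, and of the 7 tested, all were called higher in null. The summed level was highest in null library 2, followed by null libraries 5 and 1. Of the 7 tested genes, 2 were higher in each of null libraries 1, 2 and 5 than in null libraries 3, 4 and 6. By the means of these libraries Svs2 was 96.5-fold and Pate4 91.6-fold higher. In 3 of the 7, including Svs5, the mean was at least 2-fold higher (42.9%, against 1.71% of all tested genes). The means of Svs3a, Svs3b, Svs4 and Svs6 were lower (0.485-fold, 0.417-fold, 0.587-fold and 0.865-fold). The 8 smooth muscle genes summed to between 61830 and 105500 in the null and between 77480 and 88310 in the wild-type libraries, and all 8 were higher in each of null libraries 1, 2 and 5 than in null libraries 3, 4 and 6. The 8 immediate early genes, which respond to handling of tissue, summed to between 3510 and 5338 in the null and between 4010 and 5819 in the wild-type libraries, and 4 of 8 lay higher in each of null libraries 1, 2 and 5 than in null libraries 3, 4 and 6. The 4 urothelial genes summed to between 9515 and 22310 in the null and between 5945 and 7027 in the wild-type libraries, and 2 of the 3 tested were higher in each of null libraries 3, 4 and 6 than in null libraries 1, 2 and 5, as were 2 of the 3 luminal genes. All 5 myeloid and 4 of 5 B and T cell genes were called lower in null, with sums between 1216 and 1587 in the null and between 2139 and 3966 in the wild-type libraries for myeloid genes, and between 120.3 and 144.4 in the null and between 209.4 and 455.2 in the wild-type libraries for B and T cell genes. The 5 adipocyte genes, 3 called higher, summed to between 105.9 (null library 2) and 2020 (null library 1) in the null and between 96.21 and 376.3 in the wild-type libraries. The 8 skeletal muscle genes summed to between 3307 and 4970 in the null and between 2871 and 3163 in the wild-type libraries. Acta1, which lay between 11.57 and 12.17 in the null and between 11.26 and 11.44 in the wild-type libraries, made up most of the sum. Of the 6 tested, 2 (Acta1 and Mylpf) were called higher and 3 (Myh1, Myh2 and Actn3) lower. Wild-type libraries 1 to 3 also stood apart from 4 to 6. The immediate early sums were 5395 to 5819 against 4010 to 4236, and the seminal vesicle sums 3307 to 3480 against 105.6 to 125. The myeloid sums were 3858 to 3966 against 2139 to 2282, and those of B and T cells and adipocytes were likewise higher in 1 to 3. The urothelial sums (5945 to 6292 against 6694 to 7027) and the luminal sums were lower in 1 to 3. The part of these markers in the differences among the heat shock genes was not tested. Markers of ciliated and spermatogenic cells were near the floor.

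**Figure D4:**
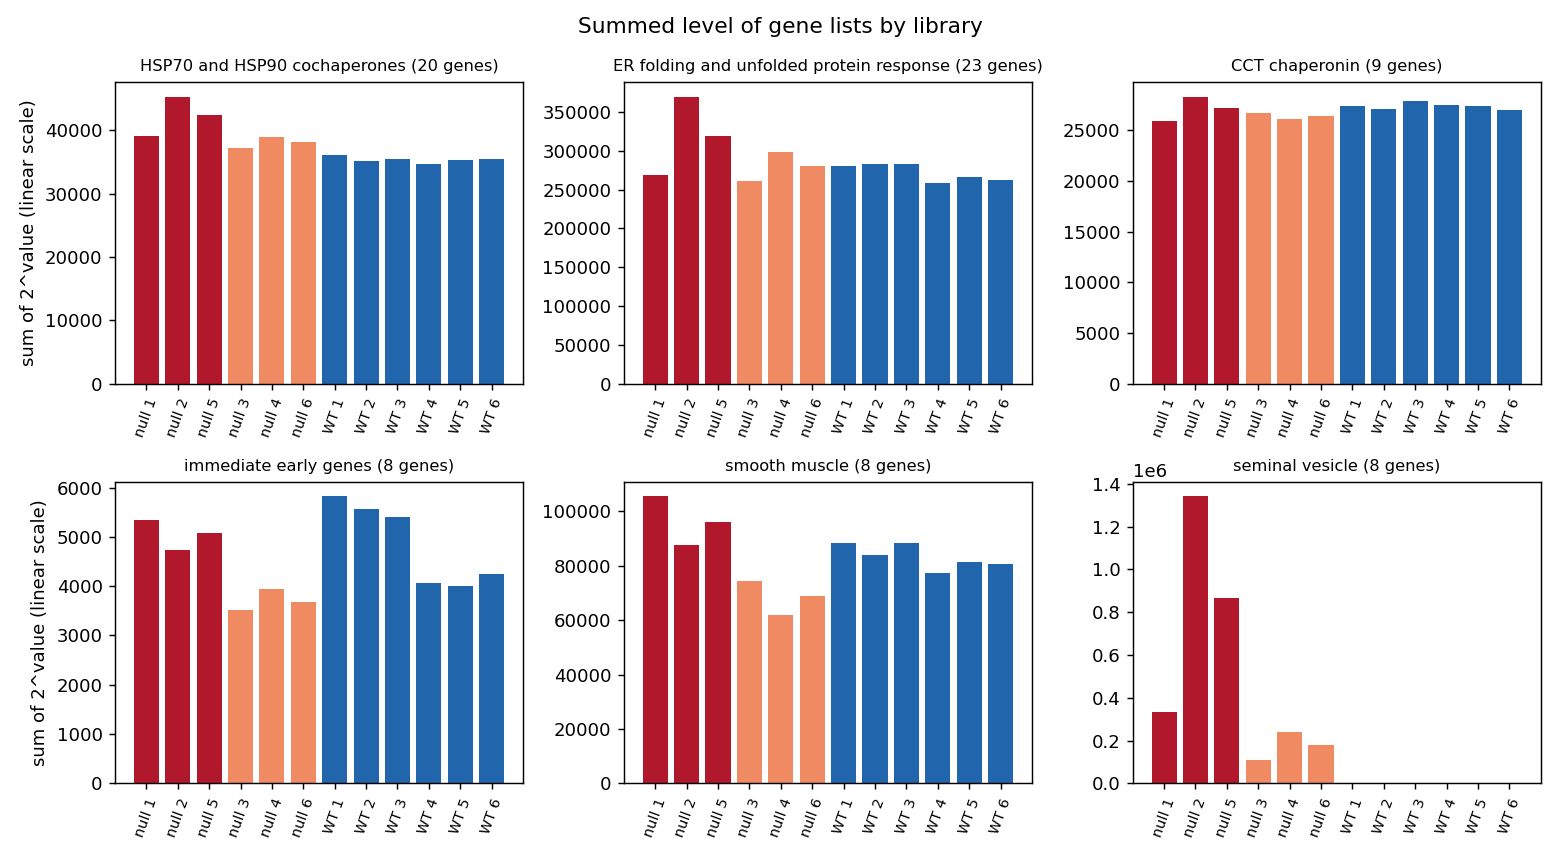
Summed linear level (2 to the power of the deposited log2 value, bars from 0) of 6 gene lists in the 6 null libraries (left) and the 6 wild-type libraries (right, WT). The seminal vesicle sum reaches 1341000 in null library 2 and is at most 3480 in wild type, and the ER list peaks at 369700 in null library 2.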

How the data were processed

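Whole-prostate poly-A RNA of 6 null and 6 wild-type libraries went through TruSeq preparation and Illumina sequencing, per the labels' protocols. Build mm9 and the tools DESeq, Cufflinks 2.0.2, TopHat2 2.0.4 and CASAVA 1.8.2 are listed, without their roles, in the submitters' processing notes. The authors deposited log2 values for 23284 genes, with no counts, so the depth is unknown and no interval for counting error can be given. Neither the transformation nor the annotation nor the strand setting of the counting is given in the sources used here.

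The deposited values were tested as they stand, with no pseudocount, in limma 3.58.1 (R 4.3.3), with trend and robust moderation, genotype as the only term, Benjamini-Hochberg adjustment over 15096 genes and a threshold of 0.05. The fit was checked on simulated data. These were drawn independently for each library, without triplets, so the check does not cover spread shared within a triplet. Library triplets were found within each genotype from 3605 genes with a mean of at least 10, members left out; they are not labelled groups. Fold values are 2 to the power of a log2 difference.

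Members, lists and tests were chosen with earlier results of these data known. Named genes are Hspa1a, Hspa1b, Hsf1, Hsf2, Bag3, the ER members, up to 20 called members whose genotypes did not overlap (15 qualified), the tested member of highest mean in each role group, up to 3 called genes by adjusted p of each other list, and Cryab; others are said to be chosen after their values were seen. The targeted gene is not reported here. Protein sequences were not used here, so a planned description of protein motifs was not made. Promoter sequences are from RefSeq (GRCm38.p6). Alternatives were other scalings, filters and tests, triplet means, and leaving out libraries.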

Additional observations from a re-analysis of the deposited data

Results flagged for a closer look

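The 6 libraries of each genotype were checked for a library that stands apart, for 70 named genes and so in 140 groups of 6; 3 stood out, where chance alone gives about 1 in 20 groups. Hsf2 in null library 1 had a value of 9.30, the highest of the null libraries, with the nearest at 9.03. Hspa13 in wild-type library 1 had 10.44, the lowest of the wild-type libraries, with the nearest at 10.53. Dnajc4 in wild-type library 4 had 8.48, the lowest of the wild-type libraries, with the nearest at 8.65.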

How the results depend on the processing

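Of the members, 20 were called higher and 11 lower with limma, and 24 and 11 in the other chaperone lists. Leaving out 1 library gave 13 to 23 higher and 10 to 13 lower members, and 20 to 25 and 10 to 12 in the lists. Quantile normalisation gave 17 lower members and 17 lower list genes, and upper-quartile scaling 13 higher members. A test against a 1.5-fold difference gave 1 higher and 0 lower members, and 2 and 0 in the lists. The triplet means gave 3 and 0 members, and 2 and 1 in the lists. A random block per triplet (consensus correlation 0.503) gave 9 and 7 members, and 14 and 4 in the lists. Without the 4 libraries nearest to mixes, a choice made after seeing the data, 9 and 7 members and 14 and 5 list genes were called. Without wild-type libraries 4 to 6, 10 members and 3751 of all 15096 tested genes were called higher. Over all 12 libraries, 4224 of all tested genes were higher and 3789 lower. Leaving out 1 library gave 4022 to 4185 and 3518 to 3754 of them, and the test against 1.5-fold 487 and 569. The triplet means gave 1144 and 1051, the random block 2682 and 2302, and leaving out the libraries nearest to mixes 3024 and 2669. Quantile normalisation gave 4174 lower genes and upper-quartile scaling 3367 higher genes. The other alternatives (no filter, a minimum of 5, no trend, the exact rank-sum test) kept the member counts within 1.5 times. The cause of these changes was not tested.

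Several differences reversed, among them some as large as that of Syvn1 (0.80 over 12 libraries). With quantile normalisation Dnajc3 was -0.1788, Hsp90b1 -0.2478, Hspa13 -0.01346, Hspa5 -0.326 and Dnajb5 0.0003923; with upper-quartile scaling Dnajc3 was -0.05198, Hsp90b1 -0.05926 and Hspa13 -0.01379. Without wild-type libraries 1 to 3, Dnajb2 was 0.02151, Hspbp1 0.02153 and Dnajb5 0.1202; without wild-type libraries 4 to 6, Dnaja2 was 0.04379, Dnajc3 -0.004861, Hsp90b1 -0.01582, Hspa5 -0.09299 and Hspb7 -0.02456. Without null libraries 1, 2 and 5, Bag3 was -0.03686, Dnaja2 0.006894, Dnajb9 -0.04561, Dnajc3 -0.01659, Hsp90b1 -0.09187, Hspa13 -0.02659, Hspa5 -0.2444, Hspa8 -0.06958, Hspd1 -0.001621, Hspb7 -0.2719, Ddit3 -0.5959, Herpud1 -0.4614 and Syvn1 -0.1725. Without null libraries 3, 4 and 6, Dnajb2 was 0.2152, Hsp90ab1 0.1637, Dnajc16 -0.04896, Dnajb12 -0.0854 and Dnajb5 0.2918; without the 4 libraries nearest to mixes, Dnajb2 was 0.008894 and Dnajb5 0.01696. Leaving out 1 library, the differences ranged from -0.1013 to 0.04145 for Dnajb2, -0.1905 to 0.06528 for Dnajb5, -0.01622 to 0.04471 for Dnajc3, -0.09491 to 0.02547 for Hsp90ab1, -0.07035 to 0.05692 for Hsp90b1, -0.03374 to 0.2623 for Hspa5, -0.01373 to 0.3563 for Hspb7 and -0.04161 to 0.006691 for Hspbp1. Dnajb5, Dnajb12 and Hspb7 were chosen after their values were seen.

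No paired analysis was possible because the labels give the libraries no replicate numbers shared between genotypes. The depth is unknown, so the precision of low values, such as those of Dnajb7, cannot be given.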
